A study of Mus musculus with 5 samples.

Results

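Contacts of 6 neuronal genes of mouse chromosome 16 were measured by 4C-seq, in which ligation and inverse PCR report the fragments lying near a chosen bait. The genes were Lsamp, Gap43, Robo1, Robo2, Ncam2 and App, named by the rule of selection, and they are 6 of the 679 protein-coding genes of the chromosome that held windows of the deposited table. They had been picked with their allele contrast in view, so the ratio between the alleles is given below as a description and carries no test. The cells were mouse embryonic stem cells of a Cas/129 hybrid line, which carries a Mus castaneus (CAST) and a 129 copy of each chromosome. Both libraries came from clones with CRISPR deletions, A6 and E2, each with the same 3 labelled intervals of chromosome 16 (mm10). These were 48308399-48311882, 48396806-48437301 and 48581359-48620367. The few 129 reads in the second and the third (given below) place those deletions on the 129 copy. Both clones were grown in medium with 2i and LIF. The bait lay in the Dppa2/4 domain, and each clone gave 1 library whose reads the authors split by allele. An unedited hybrid library was not analysed here. In a ratio of 129 to CAST, the deletions therefore cannot be told apart from a difference between the strains' sequences. The number of strain differences in each window, on which the assignment of reads rests, was not examined.

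The genes are known for roles in axon growth, adhesion and guidance. The Robo receptors bind Slit proteins and guide growing axons, Lsamp and Ncam2 are immunoglobulin-superfamily adhesion proteins, Gap43 is a growth-cone protein, and App is the precursor of the amyloid beta peptide. The Dppa2/4 domain replicates early in embryonic stem cells and is known to switch to late replication on neural differentiation, and the series asks which cis elements control replication in time and space. 4C reads show how often a stretch is captured with the bait, not how much RNA it makes.

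Gene extents were taken from the RefSeq table of GRCm38.p6 (mm10), which holds whole genes without exons. Distances run from the middle of the 50 kb gap in the windows, at 48345000, and upstream means lower coordinates. Lsamp (gene ID 268890, chr16:39984254-42181679) and Gap43 (14432, chr16:42248552-42340651) lay upstream, their near edges at 6.16 Mb and 6.0 Mb. Downstream followed Robo1 (19876, chr16:72027518-73047491) from 23.7 Mb, Robo2 (268902, chr16:73891976-75447443) from 25.5 Mb, Ncam2 (17968, chr16:81200697-81624290) from 32.9 Mb and App (11820, chr16:84952666-85175255) from 36.6 Mb. Lengths ranged from 92.1 kb for Gap43 to 2197 kb for Lsamp.

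The RefSeq promoter table of the same build (250 bases before to 50 after each start) held 8 promoters for 5 of the genes. The promoters of Lsamp and App are shown because the first start of Lsamp lay in a window without reads and that of App lay in the one start window with reads. Capitals mark GATC, the DpnII site of the protocol.
Lsamp (chr16:39984114-39984413, plus strand): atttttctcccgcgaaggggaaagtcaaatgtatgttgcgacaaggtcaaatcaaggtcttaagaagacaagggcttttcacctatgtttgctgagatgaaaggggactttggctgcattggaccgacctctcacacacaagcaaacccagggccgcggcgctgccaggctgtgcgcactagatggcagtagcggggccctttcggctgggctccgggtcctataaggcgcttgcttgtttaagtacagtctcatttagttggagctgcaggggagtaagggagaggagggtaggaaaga
App (chr16:85173658-85173957, minus strand): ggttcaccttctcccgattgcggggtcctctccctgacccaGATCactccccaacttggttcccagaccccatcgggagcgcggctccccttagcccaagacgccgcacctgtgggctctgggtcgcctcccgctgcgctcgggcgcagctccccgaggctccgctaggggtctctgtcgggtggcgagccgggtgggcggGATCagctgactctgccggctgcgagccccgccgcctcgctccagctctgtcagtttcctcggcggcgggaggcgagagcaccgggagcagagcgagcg
GATC, which reads the same on both strands, stood 0 times in the Lsamp promoter, 2 times in that of App and at least once in 6 of the 8. AAGCTT, the HindIII site, also its own reverse complement, stood in 0 of 8. Among all 32851 promoters of that length in the table, 7.45% held AAGCTT and 48.0% held GATC. Of the 8 windows of 5 kb holding a start, 1 had reads, beside 19.5% of all windows of the genes. With the windows on both sides included (15 kb), 4 of the 8 starts had reads, and no share is given for other spans of that length. The start window of App (85170001 to 85175000) had 49 CAST reads in A6 and 9 in E2. It had 0 on 129 in both clones, on the other side from the gene as a whole.

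On chromosome 16 clone A6 had 466850 reads of 129 and 311368 of CAST, and clone E2 591918 and 386984. In the second and the third labelled interval, A6 had 26 and 1 reads of 129 against 12236 and 6766 of CAST, and E2 67 and 6 against 18179 and 12501. The first interval had at most 2 reads in any column, so it shows nothing of its deletion. The clones' libraries stood in an unusual relation. All 112 windows of the 6 genes with at least 10 reads of 129 in A6 also had 129 reads in E2, as did all 85 for CAST, although 129 reads fell in 14.1% of the genes' 1121 windows and CAST reads in 10.97%. Their heights differed. Of the windows with at least 50 reads, 78.1% on 129 and 76.7% on CAST differed over 3-fold between clones in RPM (reads scaled to the depth of their column), and 15.2% and 15.1% differed less than 2-fold. On chromosome 16 within 1 Mb of the bait, by contrast, 74.8% of such 129 windows and 58.7% of CAST windows were within 2-fold. On the other autosomes 99.5% of windows with at least 10 reads in A6 were shared, on either allele. What makes far windows occur in both clones at unlike heights was not tested, and the clones are not treated as independent for the presence of a window. The genes' mean levels, allele ratios, their differences from like distance and the sides of segments are therefore also given with separated reads, in which a window of an allele was removed from a clone where its RPM was more than 3-fold below that in the other. That setting was added after the data were seen and by its construction makes clones less alike.

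**Figure D1:**
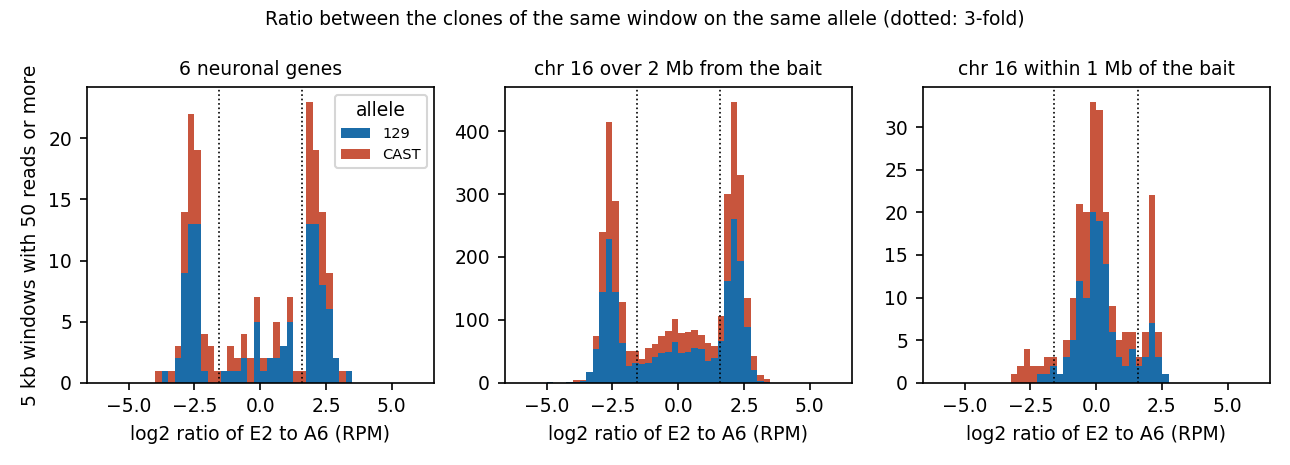
Number of 5 kb windows with at least 50 reads (y axis) by the log2 ratio of their RPM in E2 to A6 (x axis), for the 6 genes, chromosome 16 over 2 Mb from the bait, and within 1 Mb of it, with 129 and CAST stacked. Among the genes' windows, 78.1% (129) and 76.7% (CAST) lay beyond a 3-fold difference (dotted lines), while most windows within 1 Mb of the bait lay within 2-fold.

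Levels per length were compared as RPM per 100 kb over a gene and 5 kb on both sides. Ordered by the mean of the 4 columns (2 clones by 2 alleles), Robo1 had 169 ± 19.2 RPM per 100 kb (SD, n = 4 columns of 2 clones), App 165 ± 84.6, Ncam2 146 ± 55.1, Robo2 113 ± 13.0, Gap43 93.6 ± 123 and Lsamp 48.5 ± 6.29. With separated reads the means were 152 ± 18.6 for Robo1, 147 ± 82.6 for App, 123 ± 52.1 for Ncam2, 101 ± 15.2 for Robo2, 78.0 ± 116 for Gap43 and 44.8 ± 8.23 for Lsamp, in the same order. App and Robo1 lay within each other's SD, as did App and Ncam2. The SD of Ncam2 also reached the means of Robo1 and Robo2, and that of App the mean of Robo2, but not the reverse. The SD runs over both alleles and both clones, so it is not a spread of replicates. Gap43 spanned the levels of the other 5 genes from below the lowest to above the highest. Lsamp lay below Robo1, Robo2, Ncam2 and App in every column. Set against 35 genes of at least 200 kb and over 2 Mb from the bait, whose median was 121, Lsamp was the fourth lowest, above Rbfox1 at 39.5.

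**Figure D2:**
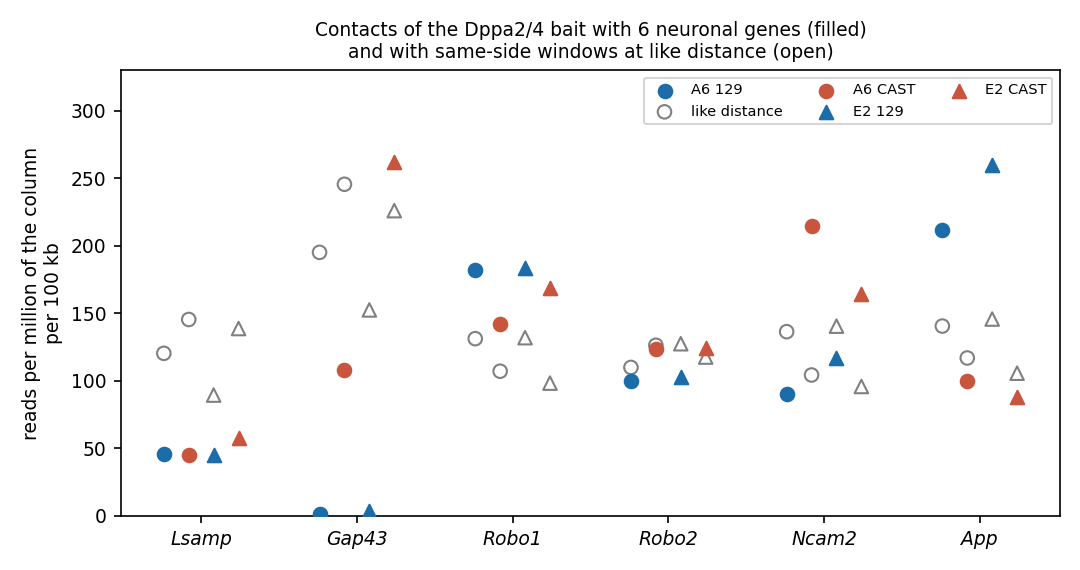
Level of each gene in RPM per 100 kb in the 129 and CAST columns of clones A6 and E2 (filled), with same-side windows at like distance (open). Lsamp lies between 45.1 and 57.9 in all 4 columns, whereas Gap43 runs from 0.927 to 262.

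Contact falls with distance from a bait, so each gene was also set beside windows of its own side within 2 Mb of its distance. Windows in any of the named genes and their 5 kb flanks were left out. For Gap43 this removed nearly all windows farther from the bait, where Lsamp lies, and its 410 comparison windows lay mostly nearer the bait. Robo1 was the one gene above its comparison windows in all 4 columns. The log2 differences were 0.47 and 0.41 (129 and CAST) in A6 and 0.48 and 0.78 in E2. Lsamp was below such windows in all 4 columns, by -1.39 and -1.69 in A6 and -0.98 and -1.26 in E2. Robo2 lay close to them, from -0.31 to 0.08. Ncam2 and App were split by allele. Ncam2 was below on 129 (-0.60 and -0.27) and above on CAST (1.04 and 0.78), and App was above on 129 (0.59 and 0.84) and below on CAST (-0.22 and -0.27). Gap43 was at -7.72 and -5.50 on 129, and at -1.18 and 0.21 on CAST.

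Lsamp was lowest also in the share of windows with any read. Reads of either allele and clone fell in 34 of 443 windows of Lsamp (7.67%), against 21.0% of its comparison windows. They fell in 5 of 22 windows of Gap43 (22.7% against 28.5%), 73 of 314 of Robo2 (23.2% against 30.4%) and 22 of 87 of Ncam2 (25.3% against 29.2%). In Robo1 69 of 207 had reads (33.3% against 28.3%), and in App 16 of 48 (33.3% against 28.4%). Across the 6 genes 219 of 1121 windows had reads (19.5%), 85 of them from 129 alone, 48 from CAST alone and 86 from both.

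On the ratio of 129 to CAST, the genes went both ways. With own reads, 5 of 6 lay on the same side in both clones, App and Robo1 higher on 129 and Gap43, Ncam2 and Robo2 higher on CAST, while Lsamp changed side. Of the 422 genes of the chromosome with at least 10 reads in each clone, 78.7% kept 1 side in both clones, 36.5% on 129 and 42.2% on CAST. Past a log2 ratio of 1 in both clones were 2 of 6, App and Gap43, and 53.8% of the 422, 26.5% on 129 and 27.3% on CAST. With separated reads 5 of 6 again kept 1 side, against 62.4% of 295 genes (26.8% on 129, 35.6% on CAST). Past 1 were 2 of 6, against 32.9% (15.3% on 129, 17.6% on CAST). Measured as the difference from like distance, Gap43 and Ncam2 were past 1 in both clones with own reads, and Gap43 alone with separated reads. No share over all genes is given for that measure, so there is no background for it. By number of windows with reads, which is not scaled by depth, 5 of 6 were above 0 in both clones, against 40.5% of the 422 (61.8% kept 1 side, 21.3% on CAST), and the chromosome as a whole had 3494 windows of 129 for A6 and 3541 for E2, with 2619 and 2692 of CAST. The genes' median ratio of own reads was -0.23, and that of the 422 genes was -0.18. The genes were chosen on this contrast, so nothing is read from these shares. The clones share most windows, so a common side in both is not independent support.

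**Figure D3:**
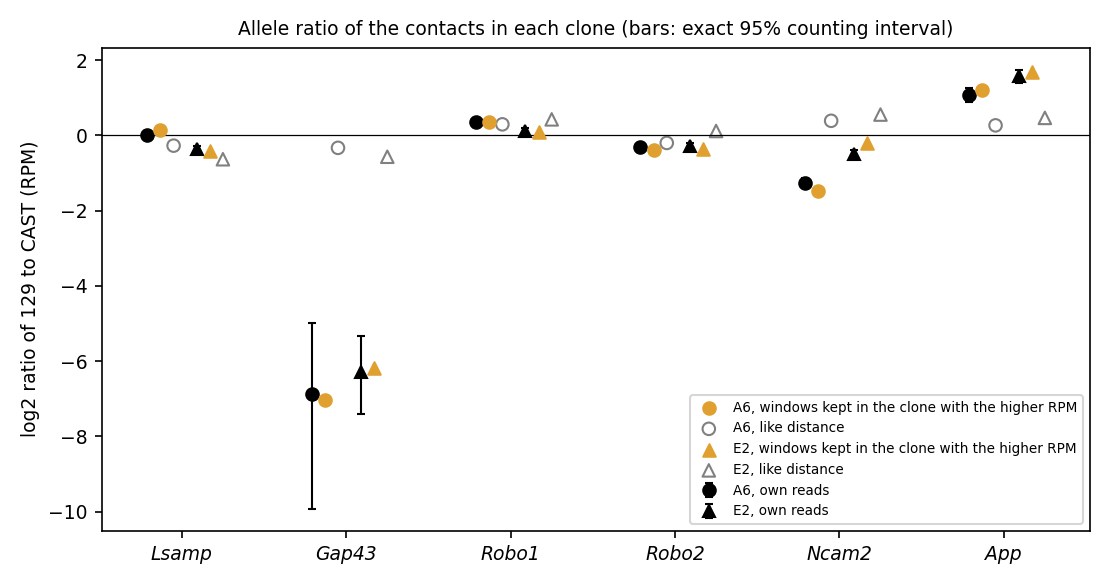
Log2 ratio of 129 to CAST RPM for each gene in both clones, from own reads (black, with exact 95% counting intervals), from separated reads (yellow) and for windows at like distance (open). Gap43 lies lowest (-6.57 ± 0.41) and App highest (1.33 ± 0.35), and the other 4 genes lie between -1.47 and 0.36 in single clones.

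Among the guidance receptors, Robo1 in A6 gave 3696 reads of 129 and 1942 of CAST, and in E2 4600 and 2812. Per 100 kb these were 182 and 142 RPM, and 183 and 168 RPM. The 129 columns were the higher in both clones, with log2 ratios of 0.36 (exact 95% interval 0.28 to 0.44) and 0.12 (0.06 to 0.19), a mean of 0.24 ± 0.17 (SD, n = 2 clones). Intervals here and below cover counting error only, since PCR copies of 1 ligation are not independent molecules. Windows at like distance had 0.29 and 0.43, so Robo1 differed from them by 0.07 and -0.30, on different sides in the clones. Separated reads gave 0.35 and 0.10, and differences from like distance of 0.07 and -0.38.

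The reads of Robo1 were spread over many windows, and the allele with more reads differed along the gene. In A6 the highest 129 window (72310001 to 72315000) held 316 reads, or 8.55% of the gene. Each gene except Gap43, which had no entry among the promoters, was divided into 10 segments of equal length. Segments were numbered from the side of the gene's transcription start. In Robo1 5 of the 10 were higher on 129 in both clones, 3 were higher on CAST in both and 2 turned between the clones, with the same counts for separated reads. The 2 that turned were segment 4 (log2 -0.90 in A6, 1.71 in E2) and segment 6 (1.12, then -0.79). In segment 3, A6 had 501 RPM per 100 kb of 129 and 150 of CAST, and E2 208 and 143. In segment 8 the order turned, with 19.9 of 129 and 230 of CAST for A6, and 54.6 and 402 for E2. Both clones thus had more CAST than 129 in that segment of a gene that was higher on 129 as a whole.

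Robo2 in A6 had 3070 reads of 129 and 2555 of CAST, and in E2 3918 and 3148. Its levels were 99.7 and 123 RPM per 100 kb in A6 and 103 and 124 in E2. CAST was higher in both clones by a small margin, at log2 ratios of -0.30 (-0.38 to -0.23) and -0.27 (-0.34 to -0.20), a mean of -0.29 ± 0.02. Scaling the columns by TMM, which assumes that most genes are equal and moved the median of all genes by 0.36, put Robo2 at 0.07 and turned its side. Separated reads gave -0.38 and -0.35, and differences from like distance of -0.18 and -0.51. A single CAST window (75340001 to 75345000) held 487 reads in each clone, or 19.1% and 15.5% of the CAST reads. Without the gene's highest window over all columns the mean difference from windows at like distance was 0.026, in place of -0.25 ± 0.20. Segment 2 was close to even, with 219 and 209 RPM per 100 kb in A6 and 238 and 242 in E2. In segment 1, which holds the first promoter and the window of 487 reads, CAST was higher in both clones (152 and 249, then 80.5 and 186), as it was in segment 10 (69.2 and 144, then 31.0 and 181). In all, 2 segments were higher on 129 in both clones, 5 on CAST, and 3 turned between the clones (1, 6 and 3 with separated reads).

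Among the adhesion genes, Ncam2 in A6 had 766 reads of 129 and 1234 of CAST, and in E2 1228 and 1155. Its levels were 89.8 and 215 RPM per 100 kb in A6, and 116 and 165 in E2. CAST was the higher in both, with log2 ratios of -1.26 (-1.39 to -1.13) and -0.50 (-0.62 to -0.38), a mean of -0.88 ± 0.54, although windows at like distance were higher on 129 (0.39 and 0.55). The difference from them was -1.64 and -1.05, and with separated reads -1.86 and -0.81. In A6 1 CAST window (81240001 to 81245000) held 561 reads, 45.5% of the CAST reads of the gene. Ncam2 was the gene whose clones moved apart most with separated reads, -1.47 in A6 and -0.21 in E2, and of 18 windows with 129 reads in both clones 1 was kept in both. By number of windows Ncam2 had 19 and 18 of 129 and 13 and 13 of CAST, a mean log2 ratio of 0.51 ± 0.06, but against windows at like distance, which also had more of 129, it was at -0.20 ± 0.02. Of its 10 segments 3 were higher on 129 in both clones, 3 on CAST, and 4 turned between the clones. With separated reads these were 2, 2 and 4, and 2 had no side in a clone. The 4 that turned were segment 2 (log2 -2.08 in A6, 2.87 in E2), segment 7 (-1.70, then 0.60), segment 8 (-2.50, then 2.10) and segment 10 (-0.79, then 3.69). Among the segments on 1 side, segment 6 had 135 RPM per 100 kb of 129 and 441 of CAST for A6, and 33.9 and 609 for E2, whereas segment 5 had 86.7 and 7.57, then 240 and 57.3.

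Lsamp in A6 gave 1987 reads of 129 and 1319 of CAST, and in E2 2425 and 2069. The levels were 45.8 and 45.1 RPM per 100 kb in A6, and 45.2 and 57.9 in E2. The log2 ratio was 0.02 (-0.08 to 0.12) in A6 and -0.36 (-0.44 to -0.27) in E2, so the clones fell on different sides of 0. Separated reads gave 0.15 and -0.41. Set against windows at like distance, which were higher on CAST, Lsamp was at 0.29 in A6 and 0.28 in E2, and with separated reads at 0.41 and 0.28. Widening those windows to 5 Mb turned the mean difference from 0.29 ± 0.01 to -0.33.

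Most windows of the gene were empty, as in the other 5 genes. Among the 35 genes of at least 200 kb, only Dlg1 had a smaller share of windows with reads (4.44% against 7.67%). The longest stretch of Lsamp without a read of any column ran for 240 kb (40760001 to 41000000). Its last segment, nearest the bait, had 0 reads in 46 windows. The other 5 genes, all shorter than Lsamp, had longest empty stretches of 40 to 70 kb. Of the 10 segments, 4 were higher on 129 in both clones, 2 on CAST, 3 turned between the clones and 1 was empty, also with separated reads. Those that turned were segment 2 (log2 0.86 in A6, -0.13 in E2), segment 4 (3.02, then -0.59) and segment 5, with 344 reads of 129 and 79 of CAST for A6 and 112 and 435 for E2. Segment 1 had 3 reads of 129 and 104 of CAST for A6, and 4 and 479 for E2. Segment 8 had 16.5 and 290 RPM per 100 kb in A6 and 37.9 and 283 in E2. Segment 9 went the other way, with 128 and 17.5 in A6 and 158 and 6.48 in E2. A single CAST window (41635001 to 41640000), in segment 8, held 770 reads in A6 and 727 in E2, which was 58.4% and 35.1% of the CAST reads. Without that window, the gene's highest over all columns, the mean ratio of Lsamp went from -0.17 ± 0.27 to 0.78 ± 0.72.

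**Figure D4:**
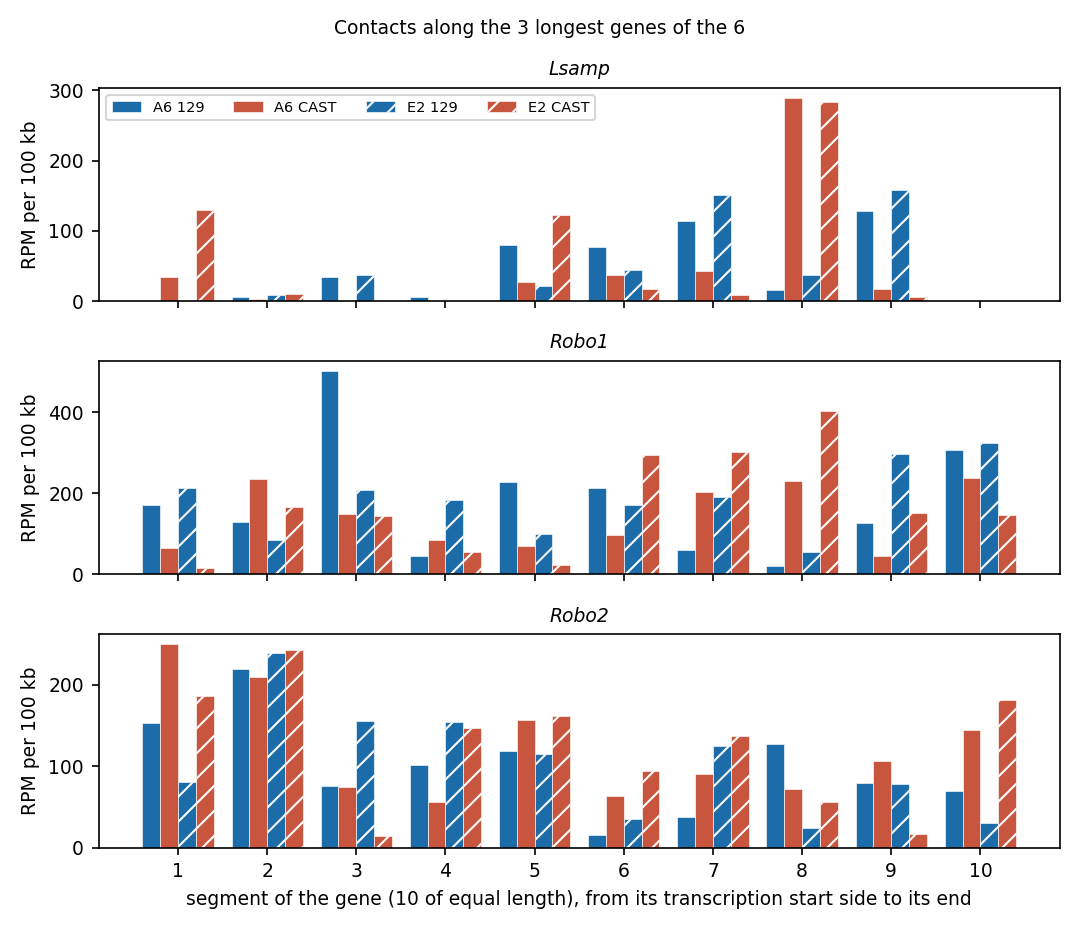
RPM per 100 kb (bars) along 10 equal segments of Lsamp, Robo1 and Robo2, the 3 longest of the genes, from the transcription start side, by allele and clone. In Lsamp segment 8 is high on CAST (290 and 283) and low on 129 (16.5 and 37.9), and the last segment holds 0 reads.

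Gap43, 66.9 kb from Lsamp, had 2 reads of 129 and 157 of CAST for A6, and 9 and 465 for E2. Its levels were 0.927 and 108 RPM per 100 kb in A6, and 3.38 and 262 in E2. The log2 ratio of -6.86 in A6 has an exact 95% interval of -9.92 to -4.99, and that of -6.28 in E2 one of -7.42 to -5.34. Gap43 had the lowest mean of the 6 genes, -6.57 ± 0.41, and 41 of the 422 genes lay below it, those with 0 reads on 129 included. Separated reads, 1 and 89 in A6 and 9 and 438 in E2, gave -7.05 and -6.19. Windows at like distance, which lay mostly nearer the bait, were at -0.33 and -0.57. Gap43 differed from them by -6.53 and -5.71, or by -6.72 and -5.59 with separated reads.

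The Gap43 ratio came from 2 windows. In A6 the CAST reads were 68 at 42285001 to 42290000 and 85 at 42310001 to 42315000. In E2 they were 437 and 27, so the first window held 94.0% of the E2 reads and the second 54.1% of those of A6. On 129 the first window had 1 and 2 reads, and the second had 0 in both clones. With separated reads the first window stayed in E2 alone and the second in A6 alone, so that no window with more than 2 CAST reads was kept in both clones. By number of windows it had 2 and 3 of 129 and 4 and 3 of CAST, a mean log2 ratio of -0.50 ± 0.71. Without the first window, the gene's highest over all columns, the mean ratio was -4.82 ± 3.15.

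App had the highest ratio of the 6 genes. A6 gave 996 reads of 129 and 317 of CAST, and E2 1513 and 339. The levels were 212 and 100 RPM per 100 kb in A6, and 260 and 87.6 in E2. Of the other 5 genes, Gap43 in E2 and Ncam2 in A6 reached these 129 levels, both on CAST. The log2 ratios were 1.08 (0.90 to 1.27) and 1.57 (1.40 to 1.75), a mean of 1.33 ± 0.35, and windows at like distance had 0.27 and 0.46. With separated reads they were 1.21 and 1.69. The difference from like distance was 0.82 and 1.11, and with separated reads 0.98 and 1.18.

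Most of the App windows with reads belonged to 1 allele, 8 to 129 alone, 6 to CAST alone and 2 to both. The highest 129 window (85090001 to 85095000) had 320 and 672 reads, 32.1% and 44.4% of the 129 reads, and 0 on CAST. The next in A6 (84990001 to 84995000) had 203 of 129 and 99 of CAST, and 44 and 21 in E2, a mean log2 ratio of 0.47 ± 0.01. At 85020001 to 85025000 the 129 reads were 84 in A6 and 410 in E2, with 0 on CAST. CAST reads stood alone at 84985001 to 84990000 (21 and 102) and 84995001 to 85000000 (38 and 184). Without the gene's highest window over all columns the mean ratio was 0.62 ± 0.14, and by number of windows it was 0.34. The difference from like distance by number of windows was -0.42. Of the 10 segments of App 6 were higher on 129 in both clones, 2 on CAST, 1 turned between the clones and 1 had no side. With separated reads these were 2, 1 and 1, and 6 had no side in a clone.

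**Figure D5:**
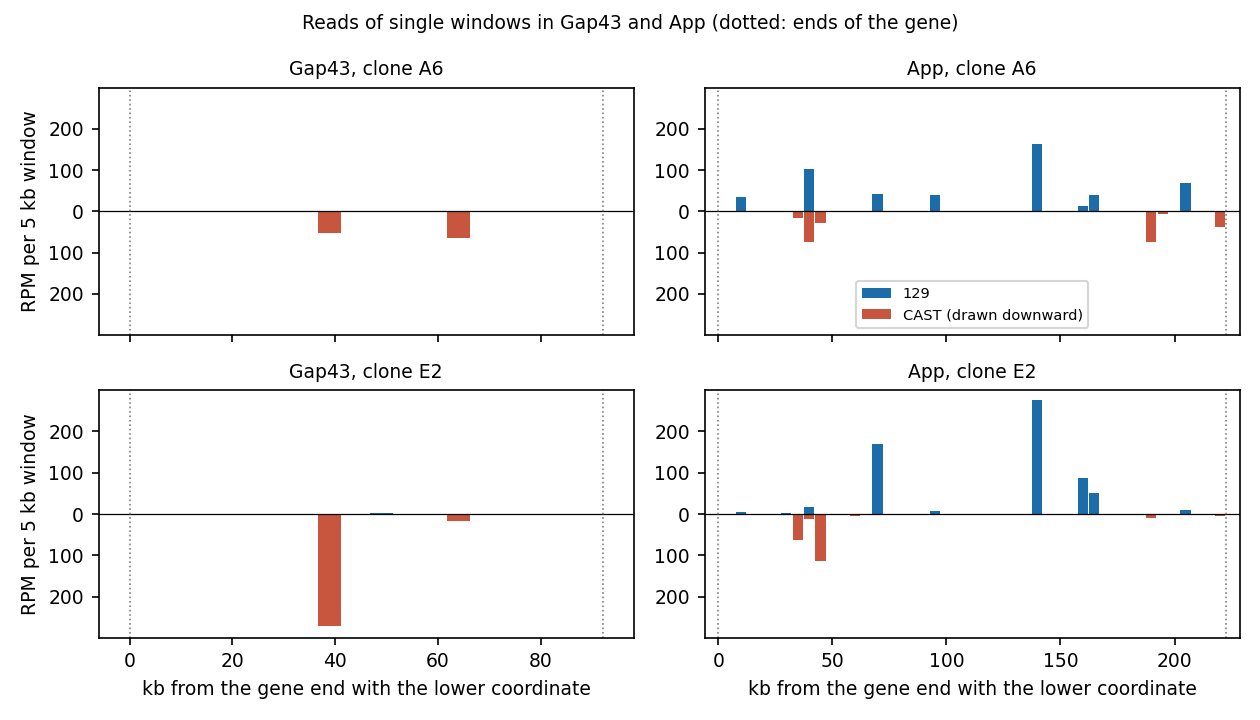
RPM per 5 kb window of Gap43 and App in both clones, 129 drawn upward and CAST downward, by distance in kb from the gene end with the lower coordinate. Gap43 has 2 tall CAST windows with unlike heights in the clones, and App has 129 and CAST windows that mostly do not coincide.

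Across the windows of a gene that had reads, correlations were higher between clones than between alleles. Pearson's r of log2(reads + 1) between clones ran from 0.64 (Ncam2) to 0.88 (App) on 129 and from 0.84 (App) to 0.91 (Lsamp) on CAST, over 16 to 73 windows with reads per gene. Between alleles of 1 clone it ran from -0.54 (App in E2) to 0.03. Gap43, with 5 windows, was left out. Windows with 0 reads in all columns were not included, and the windows of 1 column share its library and depth. The clones shared nearly all windows with reads, whereas 85 of the 219 were of 129 alone and 48 of CAST alone. The order of these correlations is thus not separate from which windows had reads, and no likeness in height is read from it.

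Neighbouring genes had ratios of their own. The nearest protein-coding gene on the far side of Lsamp, Igsf11, an immunoglobulin-superfamily gene, had log2 ratios of -1.46 (A6) and -3.61 (E2). Zbtb20, a transcription factor gene 535 kb from Gap43, was at 0.09 and -0.93. Gbe1, the glycogen branching enzyme gene before Robo1, was at 0.46 and -1.83, and the lipase gene Lipi, 93.1 kb from Robo2, at -0.61 and -3.01. Tmprss15, the enteropeptidase gene, lay 2110 kb from Ncam2 with -0.03 and -0.41. On the far side of Ncam2 Mrpl39 had 145 and 26 reads on 129 and 0 on CAST. Gabpa, 88.9 kb from App, had 0 reads on 129 and 12 and 30 on CAST, while App was higher on 129. Cyyr1, on its other side, was at 0.26 and 3.36.

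By Euclidean distance between the pairs of log2 ratios of the 2 clones, over about 290 genes with at least 50 reads, the most alike were found elsewhere. For Gap43 these were Top3b (distance 0.04), with 4 reads of 129 and 309 of CAST for A6 and 4 and 212 for E2, and Sec14l5 (1.05). For App they were Zpld1 (0.26) and Stxbp5l (0.30), for Robo1 Drd3 (0.12) and P3h2 (0.14), and for Robo2 Tmem191c and Hira (both 0.06). Lsamp was nearest Tmprss15 (0.07) and Dcbld2 (0.15), and Ncam2 nearest Atp13a4 (0.20) and Cfap44 (0.24). Only 2 clones stand behind each distance.

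Other nerve-related genes of the chromosome went both ways as well. Of 36 listed, 33 had enough reads, and 12 were higher on 129 in both clones, 14 higher on CAST and 7 changed side, with a median mean log2 ratio of -0.07 beside -0.18 over all 422 genes. Among 10 immunoglobulin-superfamily adhesion genes, the family of Lsamp, Ncam2 and the Robo receptors, 9 had enough reads, 3 higher on 129, 4 on CAST and 2 changing side, from Igsf11 at -2.54 to Igsf5 at 5.55. The Igsf5 value rests on 2 CAST reads in each clone, and with separated reads it was 6.64 in A6 and -1.59 in E2. Of 9 other axon growth genes 3 were higher on 129, 5 on CAST and 1 changed side, from the semaphorin Sema5b at -1.32 to Stxbp5l at 1.12. Of 10 receptor, channel and synapse genes 5 were higher on 129, 3 on CAST and 2 changed side. Among those with reads of both alleles in both clones, they ran from the adenylyl cyclase gene Adcy5 at -2.39 to the serotonin receptor gene Htr1f at 0.43, whose clones lay on different sides (-0.66 in A6, 1.52 in E2). Synj1, a phosphatase of synaptic vesicle recycling, had 1 read of 129 and 285 of CAST for A6, and 0 and 379 for E2. Of the amyloid-related genes, Bace2, a relative of the beta-secretase, was at -1.63 and the kinase gene Dyrk1a at 3.03, each on 1 side in both clones. Rcan1, a calcineurin regulator, turned between the clones, at -0.61 in A6 and 1.04 in E2 (-1.07 and 1.90 with separated reads). Of 4 neural transcription factor genes, Olig1 and Olig2 had 0 reads. Sim2 was lowest at -0.64, on CAST in both clones, and Zbtb20 was highest at -0.42 and changed side.

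As background, limma on log2(RPM + 1) with clone as a block called 203 of 453 genes of the chromosome between alleles at an adjusted p under 0.05 (44.8%), and edgeR's quasi-likelihood test called 182 (40.2%). With separated reads limma called 0 of 452, with 28 at an unadjusted p under 0.05, and edgeR called 1, with 17 unadjusted. No p is given for the 6 genes. The clones are 2 samples of 1 group, so the spread between them may be partly technical.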

How the data were processed

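Both hybrid clones were used, 2 of 5 samples, and the 3 inbred libraries, which have another bait and build, were not used here. The deposited values are RPM per allele in 5 kb windows of mm10, per the file headers, as running means over 30 windows (150 kb). The submitters' processing notes name Bowtie2, mm9 and mm10; versions, and the rule for assigning reads to alleles, are not stated there. Divided by the smallest step of their column, 100% of the deposited values were whole (tolerance 0.01). The running mean was undone on the rounded values, so the recovered reads are whole by construction. On these reads edgeR called 182 genes. Chromatin was cut with HindIII and DpnII, per the labels' protocols. The primers in the protocol differ from the bait listed for the clones, and no genome was used, so the bait position was not checked.

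Reads were summed over gene and 5 kb flanks and scaled by the RPM of 1 read in the deposited column. For 129 in A6 that was 0.510, against 0.516 from the total of the recovered reads. Ratios were taken within a clone, since both alleles come from 1 library, and clone is therefore the block in limma 3.58.1 (R 4.3.3; pseudocount 1 RPM, at least 10 reads over the columns, Benjamini-Hochberg at 0.05). edgeR 4.0.16 was run on the recovered reads. Intervals are exact 95% (Clopper-Pearson). Python 3.11.15, pandas 2.3.3, scipy 1.17.1 and matplotlib 3.10.9 did the rest. Named genes are the 6, their nearest protein-coding neighbours, and the highest and lowest of 5 lists. The 2 genes with the closest ratios (over 150 kb away and 2 Mb from the bait) are also named. Synj1, Rcan1, Olig1, Olig2, Rbfox1 and Dlg1 were named after their values were seen. The 6 genes and the lists were chosen with earlier results of these data known. Alternatives covered filters, flanks, pseudocounts, scaling, the like-distance range, window counts, single windows and each clone left out.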

Additional observations from a re-analysis of the deposited data

How the results depend on the processing

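Over all settings, 39 of 71 values of the 6 genes' ratios stayed within the spread of the clones on their side, 20 moved further and 12 changed sign. For the differences from like distance these were 53, 16 and 8 of 77. Counting windows in place of reads put 5 of 6 genes above 0 in both clones rather than 2. The count was also 5 with separated reads, called windows kept below, in which windows within 3-fold stay in both clones. By number of windows 40.5% of the 422 genes were above 0 in both clones. Counting windows moved the mean ratio of Lsamp to 0.54 (0.51 with windows kept), Robo2 to 0.22 (0.13) and Ncam2 to 0.51 (0.41). Lsamp also changed sign with windows read on both alleles (1.31), without the highest window (0.78) and with TMM scaling (0.19). It did so too without E2 (0.022), but not without A6 (-0.36). Robo1 went to -0.038 with windows read on both alleles, and Robo2 to 0.069 with TMM scaling. With 1 clone left out, 2 to 3 of 6 genes were above 0.

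For differences from like distance, the count above 0 in both clones went from 2 to 1 by number of windows. It was also 1 by number of windows with separated reads, and 1 within 5 Mb. With 1 clone left out it was between 2 and 3. No share over all genes is given for these counts. App was at -0.42 by number of windows and -0.24 with windows kept. Robo1 was at 0.0046 by number of windows, 0.034 within 5 Mb, and -0.30 without A6 and 0.066 without E2. Robo2 was at 0.026 without the highest window and 0.18 within 1 Mb, and Lsamp at -0.33 within 5 Mb.

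The mean share of windows with reads, 12.5%, was 9.86% with at least 5 reads and 8.45% with windows kept. Genes past a log2 of 1 in both clones numbered 227, and 97 with windows kept, 127 with at least 50 reads, 116 from deposited running means and 72 with windows read on both alleles. limma called 203 genes, 148 with no replicate block, 74 from deposited running means, 0 of 679 with no filter (126 at an unadjusted p under 0.05) and 0 of 452 with windows kept (28 unadjusted); edgeR then called 1. In the cases above the cause was not tested, except that windows kept, both-allele windows and stricter minima leave fewer reads or genes. limma could not be fitted with 1 clone left out, which leaves no residual degrees of freedom, and Gap43 had 0 windows read on both alleles with at least 10 reads each. Gap43 had 2 to 465 reads per column, in 5 of its 22 windows, so its ratio rests on few reads and few windows.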

Other observations

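Sharing of windows was not particular to the 6 genes. On chromosome 16 over 2 Mb from the bait, 2271 of 2278 windows with at least 10 reads of 129 in A6 had 129 reads in E2 (99.7%), and 1659 of 1664 did so for CAST. On the other autosomes 19172 of 19262 did so for 129, where 7.05% of windows had 129 reads in A6, and 91.5% of those with at least 50 reads differed over 3-fold between clones. The alleles of 1 clone shared fewer: 42.7% of 129 windows of A6 also had CAST reads, and 57.6% of CAST windows had 129 reads. In the 6 genes, 144 windows had 129 reads in both clones and 40 of them kept reads in both once separated; for CAST these were 112 and 34.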
